A study of Mus musculus with 36 samples.

Results

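The metallothionein genes Mt1, Mt2 and Mt3 were examined together with Mtf1, which encodes the metal-responsive transcription factor MTF-1, and Slc30a1, which encodes the zinc exporter ZnT1. These 5 genes were chosen by name, as rows of a count table of 43472 gene symbols, and were followed across 9 groups of stimulation and time. Mt1, Mt2 and Mt3 here are nuclear genes and not mitochondrial transcripts. No measured value enters the rule that lists the 5, but the list was drawn up with earlier results of these data known.

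The 36 libraries came from cultures of enteric glial cells (EGCs), the glia of the gut nervous system, which were grown from neurospheres of wild-type C57BL/6J mouse embryos. Cells were left unstimulated, or were given conditioned medium (CM) from digested healthy colon (H-CM) or from digested MC38 orthotopic colorectal tumors (TME-CM), for 6, 12 or 24 h, with 4 libraries per group. Both media came from unsorted cell suspensions of whole colon or tumor tissue kept in culture overnight, and the tumors grew from a mouse colorectal cancer cell line, so TME-CM is the pooled secretion of a mixed tissue. The labels number the 4 libraries of a group but do not say that they were separate cultures, so the p-values below measure the spread between libraries, which may be technical.

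Metallothioneins are small cysteine-rich proteins that bind zinc and copper in the cytosol. When free zinc rises, MTF-1 binds metal response elements in the promoters of Mt1, Mt2 and Slc30a1 and raises their transcription, and ZnT1 then carries zinc out of the cell. Mt1 and Mt2 are also known to respond to glucocorticoids, cytokines and oxidative stress in many tissues, whereas Mt3 is best known from the brain and does not follow metals in the same way.

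Mt1 (ENSMUSG00000031765), Mt2 (ENSMUSG00000031762) and Mt3 (ENSMUSG00000031760) lie on the plus strand of chromosome 8 of GRCm38 (mm10), at 94179082 to 94180327, 94172664 to 94173568 and 94152607 to 94154146, and 5513 bases separate the end of Mt2 from the start of Mt1. Mtf1 lies on chromosome 4 at 124802104 to 124849800 and Slc30a1 on chromosome 1 at 191906767 to 191913247, both on the plus strand, all as annotated by GENCODE. In the last 300 bases of the longest coding transcript, none of the 251 stretches of 50 bases of any of the 5 genes was found in a transcript of another gene, so reads from the ends of Mt1 and Mt2 can be told apart. Exons of Mt2, Mtf1 and Slc30a1 overlap those of a gene on the opposite strand over 432, 721 and 468 bases. Whether reads were counted by strand is not given in the sources used here. The gene opposite Mt2, Gm45774, has no row in the count table, and 1700034H15Rik, opposite Slc30a1, had at most 4 counts in any library. 1110065P20Rik, opposite Mtf1, had a median of 137 counts, so Mtf1 counts are uncertain by an amount that was not measured.

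The promoters of 3 of the genes are shown because they carry the letters that MTF-1 is known to read. All 5 genes were matched to a promoter sequence from RefSeq (GRCm38.p6). Each line below holds the 250 bases before the RefSeq start on the plus strand, and capitals mark the core of a metal response element (TGCACNC or TGCGCNC, searched on both strands):
Mt1 chr8:94178839-94179088: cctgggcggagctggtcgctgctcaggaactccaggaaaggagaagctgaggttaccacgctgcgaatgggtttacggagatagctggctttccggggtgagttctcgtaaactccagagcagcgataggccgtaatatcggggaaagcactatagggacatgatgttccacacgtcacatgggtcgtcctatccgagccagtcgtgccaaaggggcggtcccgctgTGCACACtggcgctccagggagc
Mt2 chr8:94172368-94172617: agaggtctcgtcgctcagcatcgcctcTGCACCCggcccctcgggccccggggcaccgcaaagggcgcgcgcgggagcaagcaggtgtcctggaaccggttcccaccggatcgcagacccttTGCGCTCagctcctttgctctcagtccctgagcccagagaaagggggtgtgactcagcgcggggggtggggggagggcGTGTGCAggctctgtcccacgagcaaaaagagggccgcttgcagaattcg
Slc30a1 chr1:191906531-191906780: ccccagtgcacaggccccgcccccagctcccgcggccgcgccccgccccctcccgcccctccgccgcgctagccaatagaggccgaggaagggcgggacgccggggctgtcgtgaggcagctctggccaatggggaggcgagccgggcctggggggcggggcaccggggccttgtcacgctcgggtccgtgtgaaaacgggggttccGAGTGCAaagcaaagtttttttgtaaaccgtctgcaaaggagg
The Mt2 window held 3 such cores, Mt1 and Slc30a1 held 1 each, and Mt3 and Mtf1 held 0. Of 32851 promoter windows of this length, 21.4% held at least 1 core and 1.26% held 3 or more. The choice of start matters here. The longest Mt2 transcript of GENCODE starts 46 bases after the RefSeq start, and 2 of the Mt1 transcripts start 122 and 152 bases after it, so the window does not reach the bases just before those starts. With 50 bases after the start included (300 in all), Mt2 held 4 cores, Mt1 3, Slc30a1 2, Mt3 1 and Mtf1 0, against 25.7% of windows with at least 1 and 1.97% with 3 or more. A STAT site (TTCNNNGAA) was found in none of the 5 windows of 250 bases, and 7.0% of all windows held one. The hypoxia response element core (ACGTG) was found once in the Mt1 window (16.6% of all windows). The core of the antioxidant response element (TGACNNNGC) was found once in the Mt2 window and once in the Slc30a1 window (10.2% of all windows).

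Levels are given as CPM, counts scaled to a library size of 1000000 with TMM factors of all 36 libraries. Total counts ranged from 13518 to 5244763 per library at 6 h, 2005239 to 5961933 at 12 h and 1608018 to 7552509 at 24 h. The library of 13518 counts was H-CM 6 h replicate 4, and the Mt1 and Mt2 results at 6 h that include it are also given without it. The share of counts on 1 gene, Yam1, ranged from 10.97% to 48.6% at 6 h, 12.6% to 39.9% at 12 h and 12.7% to 35.1% at 24 h. At 6 h the libraries also varied most, with a common dispersion of 0.572 against 0.122 at 12 h and 0.0455 at 24 h. In the marker lists, all 7 glial markers were detected in every group, their summed level was between 186 and 267 CPM in every library of 12 h and 24 h, and none was called between TME-CM and either other group. The cultures also expressed smooth muscle and mesenchymal genes. Medians at 12 h and 24 h were 2576 CPM for Acta2, 429 CPM for Tagln, 3123 CPM for Col1a1 and 1006 CPM for Dcn. The 5 neuron markers summed to between 217.5 and 359 CPM in every library of 12 h and 24 h. The summed epithelial markers stayed at or below 10.7 CPM in every library.

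Because the libraries hold sequence from transcript 3′ ends, counts do not scale with transcript length. A call is an adjusted p under 0.05 by edgeR's quasi-likelihood test with Benjamini-Hochberg adjustment over all genes tested at that time, which were 9256 at 6 h, 12156 at 12 h and 12713 at 24 h. In each comparison 4 of the 5 genes passed the filter on low counts, and Mt3 did not. Comparisons at one time share libraries, so they are set side by side and not counted as separate evidence. As these were bulk cultures, a change in the share of a cell type and a change in RNA per cell cannot be told apart.

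Mt2 was the most responsive of the 5 genes. In TME-CM its level at 24 h was 875, 645, 662 and 627 CPM in replicates 1 to 4. In H-CM it was 181, 117, 111 and 121 CPM. In unstimulated cells it was 88.3, 61.5, 63.0 and 63.6 CPM. The 3 groups did not overlap, and replicate 1 was the highest library in each of them. Mt2 was 5.29-fold higher in TME-CM than in H-CM (log2 fold change 2.40, SE 0.17, adjusted p = 1.44e-08 by edgeR's quasi-likelihood test) and ranked 2nd by p of the 12713 genes tested. Against unstimulated cells it was 10.2-fold higher (log2 fold change 3.35, SE 0.18, edgeR adjusted p = 4.72e-11), again 2nd by p. Mt2 was called in both comparisons in each fit that left out 1 library.

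At 12 h, Mt2 stood at 1305, 1029, 1020 and 1288 CPM in TME-CM. The H-CM libraries held 261, 154, 233 and 162 CPM, and the unstimulated libraries 147, 214, 142 and 95.3 CPM. All TME-CM libraries were therefore above all others, whereas H-CM and unstimulated libraries overlapped. The log2 fold change was 2.52 against H-CM (SE 0.24, edgeR adjusted p = 4.07e-06) and 2.95 against unstimulated cells (SE 0.24, edgeR adjusted p = 1.44e-07).

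**Figure D1:**
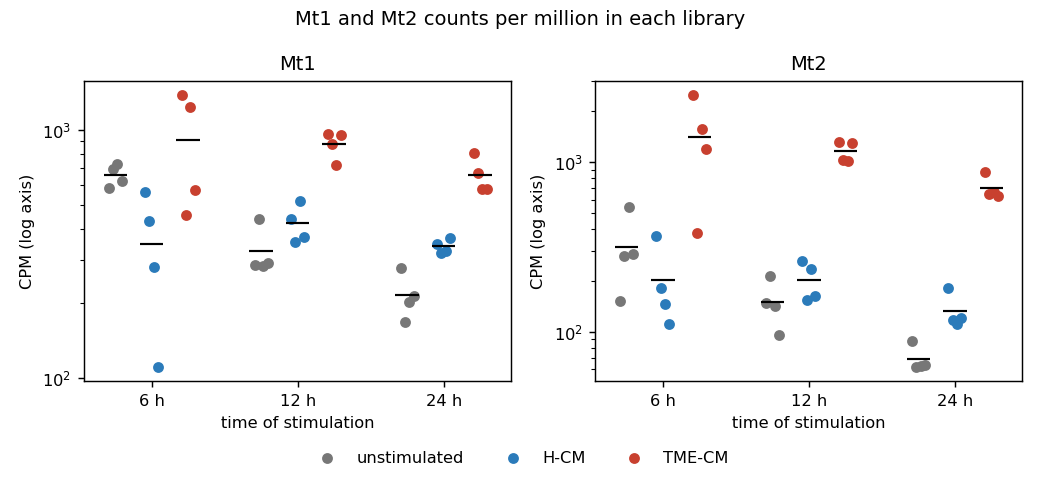
Level of Mt1 (left) and Mt2 (right) in CPM on a log axis for each of the 4 libraries of a group (points, coloured by stimulation) at 6, 12 and 24 h, with the group mean as a black line. At 12 h and 24 h every TME-CM library lies above every H-CM and unstimulated library for both genes, and at 6 h the libraries spread widely.

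At 6 h, Mt2 was already higher in TME-CM, at 2497, 379, 1576 and 1192 CPM, against 366, 180, 144 and 110 CPM in H-CM. The lowest TME-CM library was only just above the highest H-CM library. In unstimulated cells it was 151, 280, 541 and 286 CPM, which overlapped TME-CM. The log2 fold change was 2.71 against H-CM (SE 0.51, edgeR adjusted p = 0.0330) and 2.13 against unstimulated cells (SE 0.49, edgeR adjusted p = 0.0478). Mt2 was 1 of 9 genes called between TME-CM and H-CM at this time and all of them were higher in TME-CM. The H-CM 6 h replicate 4 value rests on 3 Mt2 counts, and without that library the log2 fold change was 2.65 with an edgeR adjusted p of 0.111. The call was also lost without H-CM replicate 2 or 3 or TME-CM replicate 1 or 3, with log2 fold changes from 2.34 to 2.66 and edgeR adjusted p up to 0.287. With DESeq2 size factors in edgeR it was 2.58 with an adjusted p of 0.115. The median log2 fold change over all genes was 0.13 in this comparison. The share of counts on Yam1 also differed between libraries at 6 h. In TME-CM replicates 1 to 4 it was 12.3%, 37.8%, 10.97% and 14.2%, and replicate 2, with the highest share, was the lowest for Mt2. In H-CM it was 48.6%, 43.9%, 47.9% and 19.99%, and replicate 4, with the lowest share, was the lowest for Mt2. That H-CM value rests on 3 Mt2 counts, so a direction cannot be read from it. In unstimulated cells the share was 46.3%, 44.0%, 43.1% and 13.1%. It was above 25% in 1 of 4 TME-CM libraries and in 3 of 4 in each other group. When the fit also carried a 2-level factor for libraries above 25%, which was set with these shares in view, the log2 fold change was 2.33 against H-CM (edgeR adjusted p = 0.730) and 1.81 against unstimulated cells (edgeR adjusted p = 0.763). With Yam1 taken out of the counts, both calls held. The 3 groups overlapped in the Yam1 share at 6, 12 and 24 h. At 12 h and 24 h, Mt1 and Mt2 remained called in both TME-CM comparisons with that factor (Mt2 at 24 h 2.37 and Mt1 0.88 against H-CM). At 6 h, the Mt2 call against unstimulated cells was lost without unstimulated replicate 1, 2 or 4 or TME-CM replicate 1, 3 or 4. The log2 fold changes were then from 1.75 to 2.24, with edgeR adjusted p up to 0.202.

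Mt1 was also higher in TME-CM, with smaller fold changes. At 24 h its level was 807, 670, 579 and 580 CPM in TME-CM, 348, 320, 326 and 365 CPM in H-CM, and 279, 169, 202 and 214 CPM in unstimulated cells. As for Mt2, the 3 groups did not overlap. Mt1 was 1.93-fold higher in TME-CM than in H-CM (log2 fold change 0.95, SE 0.14, edgeR adjusted p = 0.000200) and 3.05-fold higher than in unstimulated cells (log2 fold change 1.61, SE 0.15, edgeR adjusted p = 8.78e-08). At 12 h it was 965, 879, 720 and 957 CPM in TME-CM, 440, 354, 518 and 370 CPM in H-CM, and 285, 438, 282 and 292 CPM in unstimulated cells, so the TME-CM libraries again stood above all others. The log2 fold changes at 12 h were 1.07 against H-CM (SE 0.19, edgeR adjusted p = 0.00301) and 1.43 against unstimulated cells (SE 0.19, edgeR adjusted p = 5.96e-05). In 1 model of all 36 libraries, which shares a single spread with the 6 h libraries, the 24 h difference from H-CM kept its size (0.95) with an edgeR adjusted p of 0.113.

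At 6 h, Mt1 was 1388, 454, 1237 and 575 CPM in TME-CM, 562, 429, 281 and 110 CPM in H-CM, and 586, 696, 730 and 623 CPM in unstimulated cells. Here the TME-CM libraries overlapped both other groups, and all H-CM libraries were below all unstimulated ones, the lowest of them resting on 3 Mt1 counts. Mt1 did not pass the test in any comparison at 6 h. Its log2 fold change was 1.29 against H-CM (95% interval 0.46 to 2.12, edgeR adjusted p = 0.538), 0.43 for TME-CM against unstimulated cells (-0.38 to 1.24) and -0.86 for H-CM against unstimulated cells (-1.68 to -0.03). Without H-CM replicate 4 it was 1.14 for TME-CM against H-CM and -0.66 for H-CM against unstimulated cells, neither of them called (edgeR adjusted p = 0.759 and 1.0).

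Counted over the 4 tested genes, 1 was called between TME-CM and H-CM at 6 h (0.0972% of all genes tested), 2 at 12 h (1.89%) and 2 at 24 h (5.4%). Between TME-CM and unstimulated cells the counts were 1 at 6 h (0.454%), 2 at 12 h (4.41%) and 2 at 24 h (9.52%). All of these calls were Mt2, or Mt1 and Mt2, and all were higher in TME-CM. Ranges that did not overlap between TME-CM and H-CM were found for 1 of the 4 at 6 h (4.13% of all genes tested), 2 at 12 h (7.21%) and 3 at 24 h (11.2%), the additional gene being Mtf1. Between TME-CM and unstimulated cells they were found for 0 at 6 h (3.55%), 3 at 12 h (10.6%), with Slc30a1 the additional one, and 2 at 24 h (13.1%). Together Mt1 and Mt2 took 0.118% to 0.196% of all counts in the TME-CM libraries at 24 h, against 0.0508% to 0.0618% in H-CM and 0.0255% to 0.0360% in unstimulated cells.

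**Figure D2:**
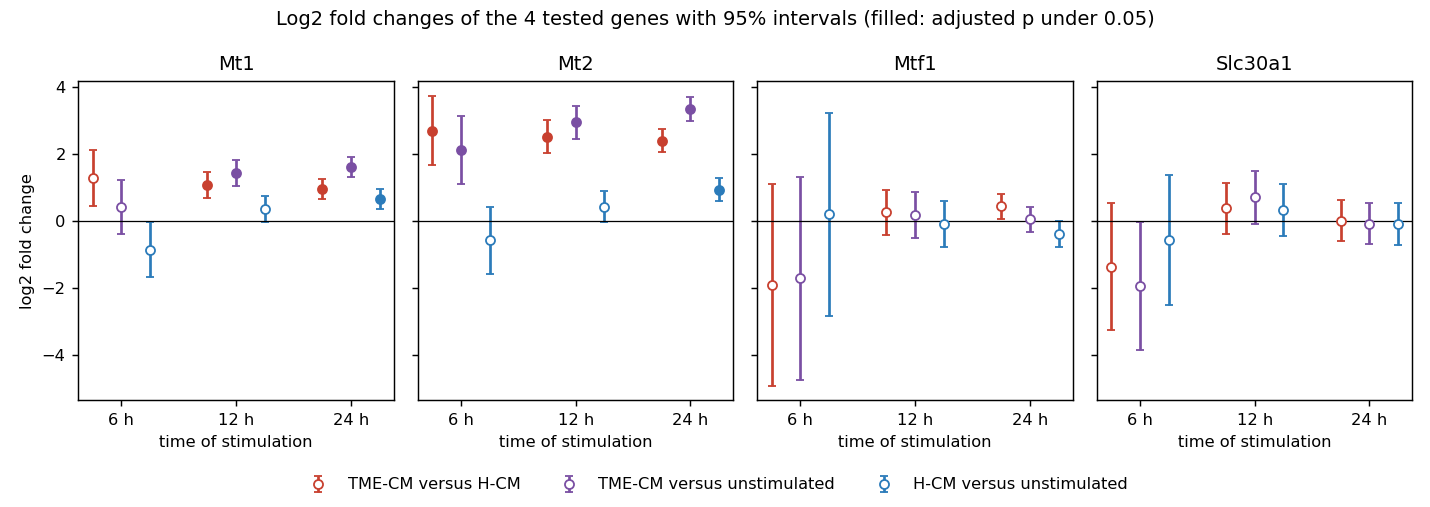
Log2 fold change (points) with 95% interval (bars) of Mt1, Mt2, Mtf1 and Slc30a1 in each comparison of stimulations at 6, 12 and 24 h, with filled points for an adjusted p under 0.05. Mt1 and Mt2 are filled for both TME-CM comparisons at 12 h and 24 h, and no point of Mtf1 or Slc30a1 is filled.

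Medium from healthy colon alone was compared with no medium to see whether any conditioned medium moved these genes. At 24 h, 2 of the 4 tested genes were called (2.03% of all genes tested). Mt2 was 1.92-fold higher (log2 fold change 0.94, SE 0.17, edgeR adjusted p = 0.00249) and Mt1 1.58-fold higher (log2 fold change 0.66, SE 0.14, edgeR adjusted p = 0.0139) in H-CM than in unstimulated cells. Ranges did not overlap for 3 of the 4 (8.17% of all genes tested), with Mtf1 lower in H-CM. The Mt1 call was lost when unstimulated replicate 2, 3 or 4 or H-CM replicate 4 was left out, with log2 fold changes from 0.56 to 0.65 and edgeR adjusted p up to 0.0686. Neither gene was called in the model of all 36 libraries (edgeR adjusted p = 1.0 for each). At 12 h, 0 of the 4 were called (0.403% of all genes tested) and 0 had ranges apart (3.85%). The log2 fold changes were then 0.43 for Mt2 (95% interval -0.04 to 0.90) and 0.36 for Mt1 (-0.03 to 0.76). At 6 h, 0 of the 4 were called, and 0% of all genes tested were called by edgeR or by DESeq2. An unadjusted p under 0.05 was reached by 58 genes, Mt1 among them, and Mt1 was the 1 gene of the 4 with ranges apart (1.7%).

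The course over time was read within each stimulation. In unstimulated cells the mean Mt2 level was 315 ± 163 CPM (SD, n = 4) at 6 h, 149 ± 48.8 at 12 h and 69.1 ± 12.8 at 24 h. In H-CM it was 200 ± 114 (230 ± 119 with n = 3 without replicate 4), 203 ± 52.8 and 132 ± 32.6 CPM, and in TME-CM 1411 ± 879, 1160 ± 157 and 702 ± 116 CPM. The 24 h and 12 h libraries were compared in one fit of 13105 genes. In unstimulated cells 1 of the 4 genes was called (0.0153% of all genes tested), and this was Mt2, which was lower at 24 h (log2 fold change -1.12, SE 0.21, edgeR adjusted p = 0.0485). The other gene called there, Tef, a clock-controlled transcription factor named here after its values were seen, was higher. The Mt2 call was lost without unstimulated 12 h replicate 1, 2 or 3 or 24 h replicate 2, 3 or 4, with log2 fold changes from -1.14 to -0.89 and edgeR adjusted p up to 0.276, and with the factor for a Yam1 share above 25% (-0.90, edgeR adjusted p = 0.0562).

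In H-CM 0 of the 4 genes were called between 12 h and 24 h (0.00763% of all genes tested) and in TME-CM 0 of the 4 (0.626%). The Mt2 log2 fold change was -0.62 in H-CM (95% interval -1.03 to -0.20, edgeR adjusted p = 0.529) and -0.72 in TME-CM (-1.13 to -0.31, edgeR adjusted p = 0.112, or 0.0384 with only those 2 groups in the fit). For Mt1 it was -0.60 in unstimulated cells (-0.94 to -0.25), -0.31 in H-CM (-0.65 to 0.03) and -0.41 in TME-CM (-0.75 to -0.07). Ranges of 12 h and 24 h did not overlap for Mt1 and Mt2 in unstimulated cells (4.22% of all genes tested), for Mt2 in TME-CM (5.61%) and for 0 of the 4 in H-CM (4.37%).

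The difference between TME-CM and H-CM was itself compared between 12 h and 24 h. It moved by -0.10 on the log2 scale for Mt2 (95% interval -0.69 to 0.48) and by -0.10 for Mt1 (-0.58 to 0.38). Like the p-values, these intervals rest on the spread between libraries, which may be technical. Of the 4 genes 0 were called (0% of all genes tested by edgeR and by DESeq2, with 436 genes at an unadjusted p under 0.05 by edgeR). In order of mean level, the 3 TME-CM groups came first for Mt2 and neighbours overlapped in 5 of the 8 steps down that order.

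The 2 genes did not move in proportion, which was examined with the number of Mt2 counts per Mt1 count in each library, a measure chosen after the values were seen. Both numbers come from the same library, so the scaling of libraries drops out, but its absolute value depends on how well each transcript end is captured and is not a ratio of molecules. At 24 h it was 1.08, 0.962, 1.14 and 1.08 in TME-CM. It was 0.519, 0.364, 0.340 and 0.331 in H-CM, and 0.317, 0.365, 0.312 and 0.298 in unstimulated cells. At 12 h it was 1.35, 1.17, 1.42 and 1.35 in TME-CM, 0.594, 0.436, 0.450 and 0.437 in H-CM, and 0.514, 0.488, 0.503 and 0.326 in unstimulated cells. TME-CM libraries were above both other groups at both times, while H-CM and unstimulated libraries overlapped.

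The ratio was 2.79-fold higher in TME-CM than in H-CM at 24 h and 2.77-fold higher at 12 h (exact two-sided permutation p = 0.0286 for each, the smallest that 4 against 4 libraries allow, and 0.0514 after adjustment over the 9 comparisons made). Against unstimulated cells it was 3.31-fold and 2.92-fold higher, with the same exact p. At 6 h it was 1.80, 0.836, 1.27 and 2.07 in TME-CM, 0.652, 0.420, 0.514 and 1.0 in H-CM and 0.258, 0.403, 0.741 and 0.459 in unstimulated cells. The H-CM value of 1.0 rests on 3 counts of each gene (95% interval 0.134 to 7.47, counting error only). The difference at 6 h was 2.31-fold against H-CM (exact permutation p = 0.0571) and 3.26-fold against unstimulated cells (exact permutation p = 0.0286, or 0.0571 without unstimulated replicate 1, 2 or 4 or TME-CM replicate 1, 3 or 4). Between H-CM and unstimulated cells the ratio was 1.41-fold, 1.055-fold and 1.19-fold higher at 6, 12 and 24 h (exact permutation p from 0.171 to 0.657). Without H-CM 6 h replicate 4, the difference at 6 h was 2.71-fold for TME-CM against H-CM (exact permutation p = 0.0571). For H-CM against unstimulated cells it was then 1.2-fold (exact permutation p = 0.514).

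**Figure D3:**
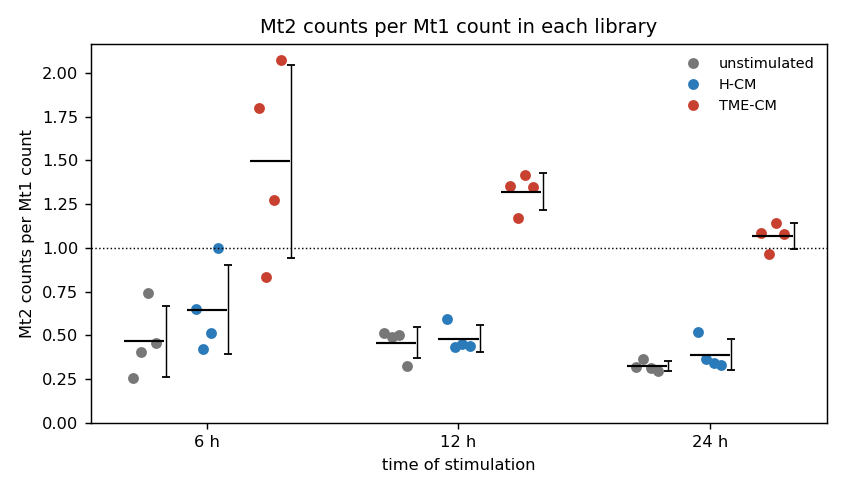
Mt2 counts per Mt1 count in each library (points, coloured by stimulation) at 6, 12 and 24 h, with the group mean (black line) and 1 SD (bars), and a dotted line where the counts are equal. TME-CM libraries lie between 0.836 and 2.07 and H-CM libraries between 0.331 and 1.0, with no overlap between them at 12 h or 24 h.

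Mt3, the metallothionein best known from neurons, was close to the limit of detection. It had 51 counts in all 36 libraries together, at most 12 in one library, and 0 in 20 libraries. All 8 libraries of H-CM and TME-CM at 6 h were at 0. Group means at 12 h and 24 h were between 0.185 and 0.579 CPM, and the ranges of all 9 groups included values at or near 0, so a difference was not detectable at this depth. Mt4, the remaining gene of the cluster, had 0 counts in every library.

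Mtf1, the zinc-sensing activator of Mt1 and Mt2, was measured at a low level and did not pass the test in any comparison. At 24 h it was 20.8, 21.9, 20.5 and 20.6 CPM in TME-CM, 17.6, 16.5, 15.4 and 10.9 CPM in H-CM and 18.8, 20.02, 22.8 and 19.0 CPM in unstimulated cells. The H-CM libraries were below both other groups, which overlapped each other. The log2 fold change was 0.44 for TME-CM against H-CM (95% interval 0.05 to 0.82, edgeR adjusted p = 0.224), 0.04 for TME-CM against unstimulated cells (-0.33 to 0.42) and -0.39 for H-CM against unstimulated cells (-0.77 to -0.01, edgeR adjusted p = 0.442). The upper bound of 0.42 for TME-CM against unstimulated cells lay below the lower bound for Mt1 in the same comparison (1.30). For TME-CM against H-CM, the Mtf1 interval overlapped that of Mt1 (0.65 to 1.25). At 12 h Mtf1 was between 8.88 and 26.9 CPM in the 12 libraries and the 3 groups overlapped. At 6 h it had 0 counts in 4 of the 12 libraries, and its intervals at that time spanned from -4.94 to 3.23.

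Slc30a1, the zinc exporter gene that MTF-1 is known to raise together with the metallothioneins, was also low. At 24 h it was 11.3, 14.2, 12.8 and 4.53 CPM in TME-CM, 9.97, 8.59, 8.63 and 16.3 CPM in H-CM and 11.03, 11.05, 12.1 and 10.1 CPM in unstimulated cells, and the groups overlapped. The log2 fold change was 0.01 for TME-CM against H-CM (95% interval -0.62 to 0.63) and -0.08 against unstimulated cells (-0.69 to 0.53). Both upper bounds lie below the fold changes of Mt1 in the same comparisons. At 12 h it was 13.5, 20.4, 15.4 and 19.8 CPM in TME-CM, above the 13.2, 10.2, 8.21 and 10.5 CPM of unstimulated cells. H-CM held 8.07, 9.87, 25.5 and 9.51 CPM, with replicate 3 apart. The log2 fold change at 12 h was 0.71 for TME-CM against unstimulated cells (-0.08 to 1.5, edgeR adjusted p = 0.500) and 0.38 against H-CM (-0.39 to 1.14). Unlike at 24 h, these upper bounds lie above the Mt1 values, 1.43 against unstimulated cells and 1.07 against H-CM. At 12 h a change as large as that of Mt1 is thus within both intervals. At 6 h its level ranged from 0 to 126 CPM in the 12 libraries, and its intervals spanned from -3.86 to 1.36.

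**Figure D4:**
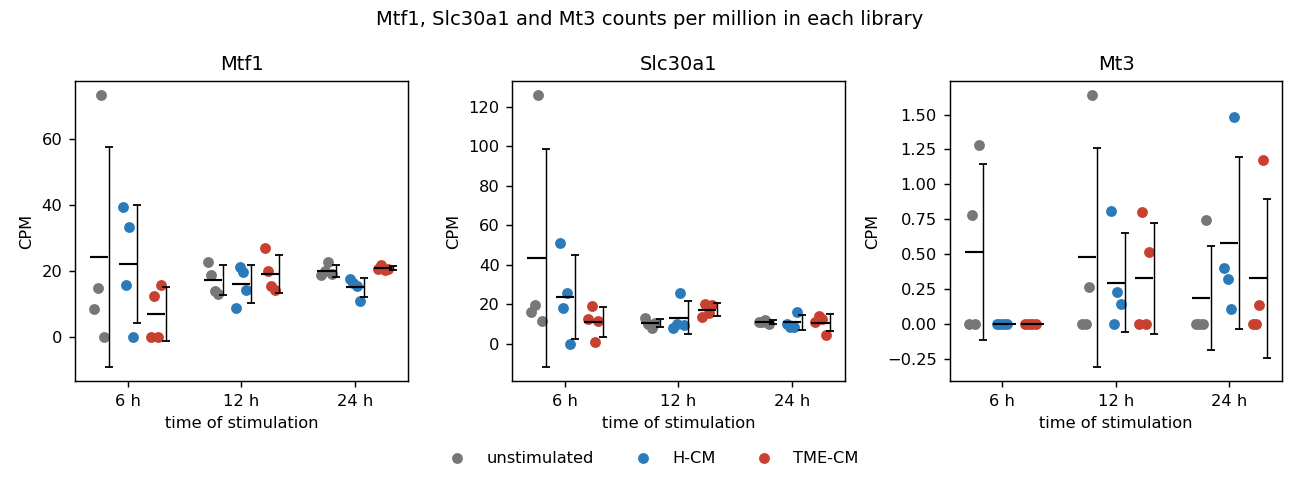
Level of Mtf1, Slc30a1 and Mt3 in CPM on a linear axis for each library (points, coloured by stimulation), with the group mean (black line) and 1 SD (bars). At 24 h the H-CM libraries lie below both other groups for Mtf1, and at 12 h the TME-CM libraries lie above the unstimulated ones for Slc30a1. Other pairs of groups at 12 h or at 24 h overlap, and Mt3 does not exceed 1.64 CPM in any library.

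Other genes of zinc and copper handling were read from lists of the ZnT exporters, the ZIP importers and copper proteins. Between TME-CM and H-CM at 24 h, 0 of the 5 tested ZnT genes other than Slc30a1 were called (of 9 listed), with log2 fold changes from -0.02 to 0.23 and a median of 0.03 against 0.005 over all genes. Of 8 tested ZIP genes (of 14 listed) 1 was called, where 5.4% of all genes tested were, and the median was 0.01. This was Slc39a14, which encodes the importer ZIP14, at 20.7 ± 3.87 CPM in TME-CM and 7.59 ± 5.25 CPM in H-CM (SD, n = 4), a log2 fold change of 1.37 (SE 0.31, edgeR adjusted p = 0.00855). Of 8 tested copper genes (of 9 listed) 1 was called and the median was 0.06. This was Slc31a2, which encodes the low-affinity copper transporter CTR2, at 24.4 ± 5.41 CPM against 12.3 ± 2.60 CPM (log2 fold change 0.99, SE 0.22, edgeR adjusted p = 0.00724). At 12 h none of the 3 lists had a call in this contrast, with Slc39a14 at a log2 fold change of 1.2 (95% interval 0.43 to 1.98, edgeR adjusted p = 0.129) and Slc31a2 at 0.84 (0.24 to 1.44, edgeR adjusted p = 0.205). At 6 h none of them had one either.

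**Figure D5:**
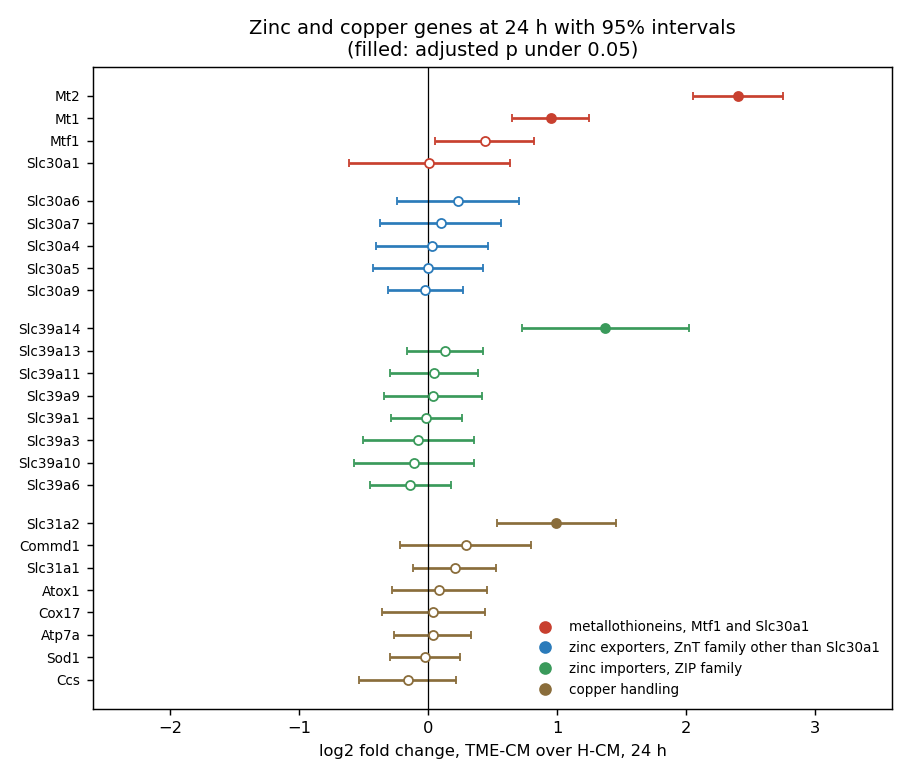
Difference between TME-CM and H-CM at 24 h on the log2 scale (points, positive when TME-CM is higher) with 95% interval (bars) for Mt1, Mt2, Mtf1, Slc30a1 and the tested ZnT, ZIP and copper genes, with filled points for an adjusted p under 0.05. Mt2 at 2.40, Slc39a14 at 1.37, Slc31a2 at 0.99 and Mt1 at 0.95 are filled and the others are not.

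Metallothionein transcription is known to be raised by the glucocorticoid receptor, STAT3, NRF2 and low oxygen, and a list for each was read in the same contrast. These lists name known targets and do not measure the activity of a factor. Of 9 tested genes of the STAT3 list, 5 were higher in TME-CM at 12 h (median log2 fold change 1.33) and 6 at 24 h (median 1.2), and 0 were lower. Over all genes tested, 0.0972% were called in this contrast at 6 h, 1.89% at 12 h and 5.4% at 24 h, and the counts of the 4 lists stand beside these shares. Among them at 24 h were Cebpd (log2 fold change 2.50), which encodes a transcription factor of the acute-phase response, Socs3 (2.13), a feedback inhibitor of cytokine signaling, and Osmr (1.58), the oncostatin M receptor. At 6 h, 2 of the 9 were higher. Of the hypoxia list, 2 of 8 tested genes were higher at 12 h (median 0.71) and 5 of 7 at 24 h (median 0.83), among them the glucose transporter gene Slc2a1 (1.34 at 24 h), the mitophagy gene Bnip3 (1.15) and the glycolytic gene Pgk1 (0.83), with 0 lower at either time and 0 called at 6 h.

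Of the glucocorticoid list, 1 of 8 tested genes was higher and 1 lower at 24 h (median -0.35), namely Errfi1 (1.33), which encodes an inhibitor of EGF receptor signaling, and Klf9 (-0.44), a glucocorticoid-induced transcription factor. None of them was called at 6 h or 12 h. Of 9 tested genes of the NRF2 list, the cystine transporter gene Slc7a11 was higher at 12 h (1.34), the quinone reductase gene Nqo1 was lower at 24 h (-1.11), and the medians were -0.18 and 0.07. None was called at 6 h.

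Smooth muscle markers moved in the opposite direction to Mt1 and Mt2. Of the 5, 4 were lower in TME-CM than in H-CM at 24 h and 2 at 12 h, and 5 of 5 were lower than in unstimulated cells at both times. Their summed level at 24 h was 1563 to 2320 CPM in TME-CM, 3036 to 3722 CPM in H-CM and 6586 to 7549 CPM in unstimulated cells, and none of the 5 was at 0. Of 4 mesenchymal markers 2 were higher in TME-CM than in H-CM at 24 h, with summed levels of 4457 to 5776 CPM against 3396 to 4138 CPM, and against unstimulated cells 2 were higher and 1 lower. Of 2 tested endothelial markers 1 was lower in TME-CM at 24 h than in H-CM and than in unstimulated cells, and the sum of the 3 listed was 10.2 to 24.7 CPM in TME-CM, 30.7 to 60.4 CPM in H-CM and 34.4 to 51.9 CPM in unstimulated cells. Between H-CM and unstimulated cells at 24 h, where Mt1 and Mt2 were higher in H-CM, 5 of 5 smooth muscle markers (median log2 fold change -1.12) and 1 of 4 mesenchymal markers were lower in H-CM. Of 7 macrophage and immune markers 0 were called between TME-CM and H-CM at any time, and their sum at 24 h was 61.7 to 316 CPM in TME-CM and 72.8 to 306 CPM in H-CM. The part of these cell types in the metallothionein result was not tested.

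The genes whose level was most like each member were found over the 24 libraries of 12 h and 24 h among 10193 genes, as the Pearson correlation of log2 CPM. The libraries share stimulation, time and scaling, so r is a description. Mt1 and Mt2 were each other's closest gene (r = 0.97, and 0.75 after group means were removed). Next for Mt2 were Ptges (r = 0.96), which encodes an inducible prostaglandin E synthase, and Ifitm1 (r = 0.95), an interferon-induced membrane protein gene, and for Mt1 Ptges and Serpina3g (r = 0.93 each). Mtf1 had r = 0.10 with Mt1 and 0.17 with Mt2, and its closest genes were Eri1, Cenpc1 and D2Wsu81e (r from 0.62 to 0.64). Slc30a1 had r = 0.36 with Mt1 and 0.29 with Mt2, and its closest genes were Trib3, Zfp68 and Cox7b (r from 0.72 to 0.75).

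Within 100 kb of Mt1 and Mt2, a window chosen after the values were seen, GENCODE lists 3 other coding genes that are not among the 5, namely Bbs2, Mt4 and Nup93. Bbs2, a gene of the primary cilium, was at 3.77 CPM in TME-CM and 2.03 CPM in H-CM at 24 h (log2 fold change 0.90, 95% interval -0.26 to 2.06). Nup93, which encodes a nuclear pore protein, was at 90.1 and 89.8 CPM (log2 fold change 0.01, -0.39 to 0.41). Neither was called at 12 h or 24 h, and the upper bound for Nup93 lay below the fold changes of Mt1 and Mt2.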

How the data were processed

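RNA of EGCs was sequenced as 36 QuantSeq 3′ mRNA libraries. Per the labels and methods, the authors trimmed reads, aligned them with HISAT2 to mm10, discarded multi-mapping reads and counted reads per gene with HTSeq (FastQC 0.11.7, SAMtools 1.5). The deposited values are raw counts per gene symbol, 43472 symbols by 36 libraries. The annotation, strand setting and any use of molecular identifiers are not given in the sources used here. All 36 columns were used and groups came from the labels.

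Counts were tested with edgeR 4.0.16 (R 4.3.3, limma 3.58.1) by the quasi-likelihood test (TMM, filterByExpr with a minimum count of 10, Benjamini-Hochberg), with 1 fit per time point over its 12 libraries and 1 fit of the 24 libraries of 12 h and 24 h for time, each with 1 mean per group. SE and 95% intervals come from that fit. A call is an adjusted p under 0.05. CPM used TMM factors of all 36 libraries, and correlations used log2 CPM with a prior count of 2. The Mt2 to Mt1 ratio was tested by exact permutation over libraries. DESeq2 1.42.0 and other settings were alternatives. The fits were tested on simulated data. The members and lists were chosen with earlier results of these data known. Named genes are the 5 members, up to 3 called genes per list and time with the smallest adjusted p in TME-CM against H-CM at 12 h or 24 h, and the 3 genes most correlated with each member of at least 5 CPM. Outside this rule, Tef and the neighbours of Mt1 and Mt2 were named after their values were seen, and genes that overlap a member by their position. Depth was lowest at 6 h, where a library of 13518 counts cannot resolve low genes. No pair of libraries of a group agreed within sampling noise. Gene positions came from GENCODE M21 and promoters from RefSeq.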

Additional observations from a re-analysis of the deposited data

Results flagged for a closer look

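Dixon's test at the 95% level was applied to the 4 libraries of each of the 9 groups. It covered 45 sets of levels of the 5 genes and 9 sets of the ratio of Mt2 to Mt1 counts. Of these sets 11 had a library set apart. The test flags about 1 in 20 sets when values are normal and sets are independent. That rate does not apply here, because Mt3 sets lie near 0 counts and the ratio reuses Mt1 and Mt2 counts. For Mt2 at 24 h the highest library stood apart in all 3 groups, at 88.3 CPM in unstimulated cells, 181 CPM in H-CM and 875 CPM in TME-CM, and each was replicate 1. For Mt1 in unstimulated cells at 12 h, replicate 2 stood apart at 438 CPM. Slc30a1 had replicate 3 apart in unstimulated cells at 6 h, at 126 CPM, and in H-CM at 12 h, at 25.5 CPM. Mt3 had replicate 4 apart in unstimulated cells at 12 h (1.64 CPM) and 24 h (0.741 CPM) and in TME-CM at 24 h (1.17 CPM), values that rest on 12, 6 and 7 counts. The number of Mt2 counts per Mt1 count stood apart at 12 h in unstimulated replicate 4 (0.326, the lowest) and in H-CM replicate 1 (0.594, the highest).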

How the results depend on the processing

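The higher levels of Mt1 and Mt2 in TME-CM at 12 h and 24 h passed the test under each alternative run, except Mt1 against H-CM at 24 h in 1 model of all 36 libraries (log2 fold change 0.95, edgeR adjusted p = 0.113), where 1 gene was called in place of 2. Without each library in turn, the log2 fold change against H-CM ranged from 2.28 to 2.59 for Mt2 and 0.84 to 1.01 for Mt1 at 24 h, and 2.41 to 2.66 and 0.99 to 1.18 at 12 h. In that model, 2 genes were called between TME-CM and H-CM at 6 h (Mt1 1.26, edgeR adjusted p = 0.00642), and 0 between H-CM and unstimulated cells at 24 h and 0 between unstimulated cells at 24 h and 12 h. With DESeq2 size factors, 0 genes were called between TME-CM and H-CM at 6 h (Mt2 2.58, edgeR adjusted p = 0.115) and 0 between TME-CM and unstimulated cells at 6 h. The latter count was also 0 with only the groups compared in the fit. Between TME-CM at 24 h and 12 h, 1 gene (Mt2) was called with no filter on low counts, by the DESeq2 Wald test, and with only the groups compared, where the count between unstimulated cells at 24 h and 12 h was 0.

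The labels do not say what a replicate number marks, and the numbers were not taken to pair the libraries, since same-numbered libraries of 2 groups deviated together with r from -0.16 to 0.23. At 6, 12 and 24 h, 3, 5 and 6 of 12 pairs correlated best with their own number, where 3 of 12 would if numbers carried nothing. With the replicate block, 0 genes were called between TME-CM and unstimulated cells at 6 h (Mt2 1.91, edgeR adjusted p = 0.114) and 1 between TME-CM at 24 h and 12 h (Mt2 -0.73, edgeR adjusted p = 0.0395). The replicate block changed no other call of the 5 genes. It moved the count of all genes called from 9 to 4 between TME-CM and H-CM at 6 h and from 42 to 23 between TME-CM and unstimulated cells at 6 h.

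Leaving out 1 library at a time, the count of called genes ranged from 0 to 1 for TME-CM against H-CM and against unstimulated cells at 6 h and for unstimulated cells at 24 h against 12 h, and from 1 to 2 for H-CM against unstimulated cells at 24 h. The Mt2 difference from H-CM at 6 h ranged from 2.34 to 3.20, the log2 ratio of Mt2 to Mt1 in TME-CM against unstimulated cells at 6 h from 1.45 to 1.96 and in H-CM against unstimulated cells at 12 h from -0.079 to 0.14.

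Values of low genes, none of them called, changed sign. Slc30a1 in TME-CM against H-CM at 24 h was -0.0099 with the replicate block and -0.014 in the model of all 36 libraries, and Mtf1 in H-CM against unstimulated cells at 6 h was -0.25 by DESeq2. Over fits without 1 library, Mtf1 ranged in H-CM against unstimulated cells from -0.27 to 1.74 at 6 h and -0.25 to 0.11 at 12 h, in TME-CM against unstimulated cells from -0.050 to 0.34 at 12 h, and in H-CM at 24 h against 12 h from -0.27 to 0.084. Slc30a1 ranged in H-CM against unstimulated cells from -1.13 to 0.82 at 6 h, -0.18 to 0.50 at 12 h and -0.30 to 0.015 at 24 h, in TME-CM at 24 h from -0.12 to 0.27 against H-CM and -0.22 to 0.18 against unstimulated cells, and at 24 h against 12 h from -0.024 to 0.20 in unstimulated cells and -0.55 to 0.20 in H-CM. The change of the TME-CM minus H-CM effect on Mt2 ranged from -0.24 to 0.085. The cause of these changes was not tested. With a factor for a Yam1 share above 25%, 0 genes were called between TME-CM and H-CM at 6 h (Mt2 2.33), between TME-CM and unstimulated cells at 6 h (Mt2 1.81) and between unstimulated cells at 24 h and 12 h (Mt2 -0.90), and Mtf1 in TME-CM at 6 h was 1.39 against H-CM and 1.67 against unstimulated cells and Slc30a1 in TME-CM against H-CM at 24 h was -0.050. That factor, DESeq2 with H-CM 6 h replicate 4 left out and the fits of the ratio without 1 library were chosen after seeing the data.

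Counts over all genes also moved. Between TME-CM and H-CM the 9, 230 and 686 genes called at 6, 12 and 24 h became 899, 81 and 71 in the model of all 36 libraries, 23, 383 and 903 by the DESeq2 Wald test, and 41, 465 and 896 with no filter on low counts. Between TME-CM and unstimulated cells 42, 536 and 1210 became 1113, 288 and 265, then 72, 706 and 1419, then 105, 649 and 1366. Between H-CM and unstimulated cells at 12 h and 24 h, 49 and 258 became 35 and 34, then 98 and 410, then 168 and 446. With the Yam1 factor, 9 and 42 at 6 h became 2 and 21, and 258 became 413. Depth limits the low genes most, with Mt3 at 51 counts in all and Mtf1 at 0 counts in 4 libraries of 6 h.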
